A study of Mus musculus with 2 samples.

Results

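The metabotropic glutamate receptor genes Grm2, Grm3, Grm4, Grm5, Grm7 and Grm8 were followed through the named classes of nuclei of the ventrolateral periaqueductal gray (vlPAG), a midbrain area. They were also compared between mice on a high-fat diet (HFD) and mice on a normal food diet (NFD). The genes were chosen by name, as members of the receptor family. They are 6 of the 55450 genes in the count tables and 6 of the 32205 genes with at least 1 count in the nuclei kept. All 6 were detected in both libraries.

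Metabotropic glutamate receptors are G protein-coupled receptors that sense glutamate released at synapses and adjust neuronal excitability and transmitter release. Group I receptors, Grm5 among them, couple to Gq and phospholipase C and sit mostly at the postsynaptic membrane. Group II receptors, Grm2 and Grm3, and group III receptors, Grm4, Grm6, Grm7 and Grm8, couple to Gi/o, lower cyclic AMP and act largely as presynaptic brakes on transmitter release, and Grm3 and Grm5 are also known from glial cells. In the periaqueductal gray these receptors are known for their part in pain control and in autonomic and defensive responses.

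The HFD library held vlPAG nuclei of wild-type (WT) C57/BL6J mice that were 8 weeks old when the diet began and ate HFD for 7 weeks, and the NFD library held vlPAG nuclei of WT C57/BL6J mice of the same age that ate normal chow for the same 7 weeks. Each diet had 1 droplet library made from the tissue of 18 mice pooled, with no label for the mouse a nucleus came from. The comparison asks how gene expression in vlPAG cells, GABAergic cells first, differs in mice made obese by diet, and it has no replicate check. No p-value or standard error is given for that reason, and every interval is an exact 95% interval that covers counting error only. Counts are unique molecular identifiers (UMIs, 1 per captured RNA molecule), and a level is the number of UMIs of a gene per 1000000 UMIs of the same nuclei (CPM).

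After removal of barcodes with at most 500 UMIs or with at least 20% mitochondrial counts, 6322 of 6813 HFD barcodes and 7500 of 7625 NFD barcodes remained, with 54587419 UMIs in HFD and 41042988 UMIs in NFD. The median was 7347.5 UMIs per HFD nucleus and 4504.5 UMIs per NFD nucleus, and 13 barcodes occurred in both libraries. The nuclei were grouped without use of the receptor genes and named from marker genes, so that each class name is short for "-like" nuclei. GABAergic nuclei numbered 1564 in HFD and 1928 in NFD. Clusters marked by Slc17a6, the vesicular glutamate transporter, held 1253 HFD nuclei and 1498 NFD nuclei. Neuronal clusters called for neither transmitter, 1364 HFD and 1969 NFD nuclei, stood outside the named classes. The largest cluster, cluster 0, was among them and held 16.1% of the Grm5 UMIs of HFD and 21.2% of those of NFD. Also outside were 169 HFD and 387 NFD unnamed nuclei, and cluster 20 with 78 HFD and 45 NFD nuclei. Rankings of classes below do not cover these nuclei. Cluster 5, with the cerebellar granule cell markers Gabra6, Etv1 and Fat2, held 766 HFD nuclei (12.1%) and 10 NFD nuclei (0.133%), and its median HFD nucleus had 1709 UMIs. Such granule cells are known from the cerebellum and not from the vlPAG, and all-nuclei values therefore mix cell make-up with level. Each of the 12 named classes rests on at least 3 detected markers. For the Slc17a6 clusters these were general neuronal markers, and the transmitter was called from summed marker levels alone.

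The genes differ widely in length, which matters for nuclear RNA. On GRCm38 with the GENCODE M21 annotation, Grm5 lies on chromosome 7 (87584168 to 88134907, plus strand), Grm2 on chromosome 9 (106643095 to 106656082, minus strand) and Grm3 on chromosome 5 (9485541 to 9725170, minus strand). Grm4 lies on chromosome 17 (27422387 to 27521403, minus strand), and chromosome 6 carries both Grm7 (110645581 to 111567230, plus strand) and Grm8 (27275119 to 28135178, minus strand). Their spans ran between 13.0 kb for Grm2 and 922 kb for Grm7, and genes that overlap them on the same strand had 0 UMIs. Per kb of gene span in GABAergic nuclei, Grm7 had 2.49 CPM in HFD and 2.38 CPM in NFD, and Grm5 had 2.42 CPM in HFD and 2.38 CPM in NFD. Grm8 followed at 0.978 CPM per kb in HFD and 0.992 CPM per kb in NFD, Grm3 at 0.556 CPM per kb in HFD and 0.519 CPM per kb in NFD, and Grm4 at 0.250 CPM per kb in HFD and 0.235 CPM per kb in NFD. Grm2 lay near Grm4, at 0.194 CPM per kb in HFD and 0.295 CPM per kb in NFD. Grm7 and Grm5 thus stood level per kb of span, whereas per kb of exon Grm7 was higher, at 390 CPM in HFD and 372 CPM in NFD, beside 130 CPM in HFD and 128 CPM in NFD for Grm5.

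Grm5, the group I receptor among the 6, was high in neurons and higher still in oligodendrocyte precursors. In precursors, the dividing cells that give rise to oligodendrocytes, it had 2062 CPM in HFD (interval 1871 to 2268) and 1553 CPM in NFD (1361 to 1765). Slc17a6 clusters had 1426 CPM in HFD and 1405 CPM in NFD, and GABAergic nuclei had 1333 CPM in HFD and 1310 CPM in NFD. In NFD the interval of the precursors met that of the Slc17a6 clusters, so only in HFD did precursors stand above every other class beyond counting error. A Grm5 UMI was found in 47 of 47 HFD precursor nuclei and in 51 of 57 NFD precursor nuclei. Each nucleus with at least 2000 UMIs was then thinned to 2000 UMIs, which puts nuclei of different depth on 1 scale. Shallower nuclei were left out of all thinned values, among them 18 of 57 NFD precursors and 211 of 346 NFD astrocytes. The share with a Grm5 UMI was 95.2% in HFD and 84.6% in NFD precursors, against 13.0% in HFD and 19.3% in NFD astrocytes. Median depths were 4240 UMIs in HFD and 2405 UMIs in NFD precursors, and 2708 UMIs in HFD and 1770 UMIs in NFD astrocytes.

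At the other end, Grm5 was low in astrocytes, at 92.3 CPM in HFD and 146 CPM in NFD, which was 0.081-fold and 0.121-fold the level of all other nuclei of the same library. The whole interval lay beyond 2-fold in both libraries for astrocytes, microglia, pericytes or fibroblasts and ependymal nuclei, each lower in Grm5 than the other nuclei. By this rule 4 of 6 members were lower in astrocytes (Grm4, Grm5, Grm7 and Grm8), where 6.99% of all genes were lower, and the share of all genes was 1.28% in microglia, 1.29% in pericytes or fibroblasts and 5.01% in ependymal nuclei. Ependymal cells had 22.5 CPM of Grm5 in HFD and 178 CPM in NFD. Granule-like HFD nuclei had 61.4 CPM of Grm5. Grm6, the group III receptor of the retina, had 0 UMIs, which allows up to 0.055 CPM in HFD and 0.0731 CPM in NFD over all nuclei.

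**Figure D1:**
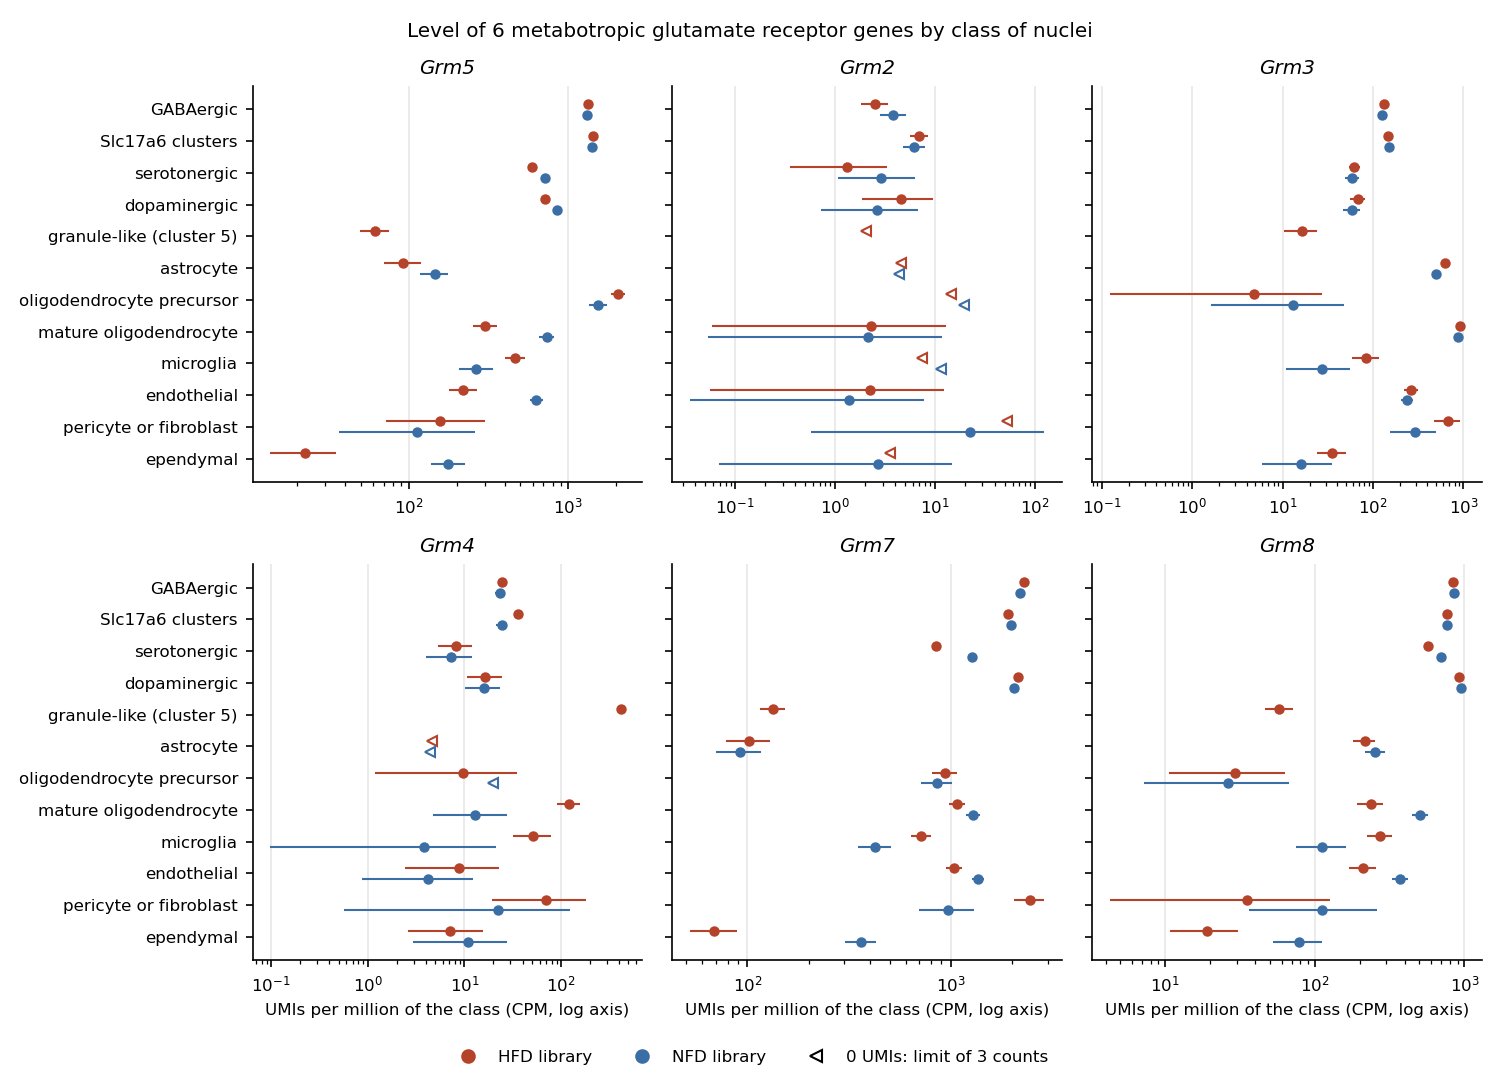
Level of each receptor gene (CPM, log axis, a separate range for each panel) by class of nuclei, with HFD in red above NFD in blue, exact 95% counting intervals as lines, and open triangles at the limit of 3 counts where no UMI was found. Grm5 peaks in oligodendrocyte precursors, Grm3 in mature oligodendrocytes and Grm4 in granule-like nuclei, and the 10 granule-like NFD nuclei are not drawn.

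Of the group II genes, Grm2 was rare. It had 3.87 CPM in HFD and 4.14 CPM in NFD over all nuclei, from 211 UMIs in HFD and 170 UMIs in NFD. Slc17a6 clusters had 6.95 CPM in HFD (interval 5.65 to 8.47) and 6.21 CPM in NFD (4.75 to 7.97), above the 2.52 CPM in HFD (1.80 to 3.43) and the 3.83 CPM in NFD (2.81 to 5.09) of GABAergic nuclei, although in NFD these intervals met. Astrocytes, microglia and oligodendrocyte precursors had 0 UMIs of Grm2 in either library. A difference in Grm2 between the diets was not detectable at this depth in GABAergic nuclei, which held 40 HFD and 47 NFD UMIs, and the log2 ratio in Slc17a6 clusters was 0.16 (−0.31 to 0.65).

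Grm3, the group II receptor known from glia, was highest in mature oligodendrocytes and high in astrocytes. Pericytes or fibroblasts had 669 CPM in HFD and 292 CPM in NFD, from 38 UMIs of 35 HFD nuclei and 13 UMIs of 32 NFD nuclei. Mature oligodendrocytes, the myelinating cells, had 922 CPM in HFD (834 to 1018) and 866 CPM in NFD (784 to 955), which was 7.44-fold and 6.83-fold the level of the other nuclei. In HFD 1 nucleus held 78 of the 398 UMIs and the 3 richest held 31.2%, against 9.85% in the 3 richest of NFD. Astrocytes had 626 CPM in HFD (567 to 690) and 496 CPM in NFD (445 to 552), 5.04-fold and 3.84-fold the other nuclei. Grm3 was the 1 member of 6 that was past 2-fold above the other nuclei in these classes, where 2.69% of all genes were past that fold in mature oligodendrocytes and 5.81% in astrocytes. In thinned nuclei a Grm3 UMI was found in 79.1% of HFD and 71.6% of NFD oligodendrocytes and in 58.4% of HFD and 55.6% of NFD astrocytes. GABAergic nuclei gave 20.2% in HFD and 17.5% in NFD, and Slc17a6 clusters 20.5% in HFD and 24.0% in NFD. Astrocytes and mature oligodendrocytes held 5.73% and 5.60% of the Grm3 UMIs of HFD and 6.14% and 7.31% of those of NFD, while GABAergic nuclei, far more numerous, held 29.7% in HFD and 27.5% in NFD.

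Oligodendrocyte precursors were the reverse of their mature counterparts. They held 1 Grm3 UMI in HFD (4.85 CPM) and 2 in NFD (13.2 CPM), 0.037-fold and 0.097-fold the other nuclei, and after thinning a Grm3 UMI was found in 0 of 42 HFD nuclei and 0 of 39 NFD nuclei, which allows shares of up to 8.41% in HFD and 9.03% in NFD by the exact interval. Mature oligodendrocytes in turn had 304 CPM of Grm5 in HFD and 734 CPM in NFD, below the precursors in both libraries. Within this lineage Grm5 thus stood high in precursors and Grm3 in mature cells in HFD and in NFD alike. Past 2-fold below the other nuclei were Grm3 and Grm8 in precursors, 2 of 6 members, where 1.69% of all genes were lower by that rule.

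Among neurons, Grm3 had 147 CPM in HFD and 150 CPM in NFD in Slc17a6 clusters, and 133 CPM in HFD and 124 CPM in NFD in GABAergic nuclei. Serotonergic nuclei had 62.5 CPM in HFD and 58.7 CPM in NFD, and dopaminergic nuclei 68.0 CPM in HFD and 58.2 CPM in NFD. The levels of these last 2 classes did not differ beyond their counting intervals in either library. Endothelial nuclei, of the vessel wall, had 266 CPM in HFD and 241 CPM in NFD, above all 4 neuronal classes.

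Of the group III genes, Grm4 was highest in granule-like nuclei. These had 423 CPM in HFD (390 to 457) from 620 UMIs and 720 CPM in NFD (311 to 1419) from the 8 UMIs of 10 nuclei, 12.9-fold and 33.3-fold the other nuclei. Granule-like nuclei gave 26.3% of all Grm4 UMIs of the HFD library with 2.69% of its UMIs, and 0.894% of the Grm4 UMIs of the NFD library. A Grm4 UMI was found in 53.4% of the 234 HFD granule-like nuclei that could be thinned to 2000 UMIs, while 532 were shallower. Thinned to 1000 UMIs, 33.9% of 697 such nuclei held a Grm4 UMI. Astrocytes had 0 Grm4 UMIs in both libraries, which allows up to 3 counts, or 4.61 CPM in HFD and 4.37 CPM in NFD. In granule-like nuclei 1 of 6 members was past 2-fold above the others, as were 0.569% of all genes.

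Grm7, the group III receptor of presynaptic active zones, was the most abundant of the 6 in CPM over all nuclei, at 1840 CPM in HFD and 1934 CPM in NFD. GABAergic nuclei had 2295 CPM in HFD (2272 to 2319) and 2190 CPM in NFD (2164 to 2217), dopaminergic nuclei 2134 CPM in HFD and 2051 CPM in NFD, and Slc17a6 clusters 1922 CPM in HFD and 1968 CPM in NFD. The order of these 3 classes was the same in both libraries, although in NFD the interval of the dopaminergic nuclei (1979 to 2124) met that of the Slc17a6 clusters (1940 to 1996). Pericytes or fibroblasts led in HFD, with 2446 CPM from 139 UMIs, and their interval met that of the GABAergic nuclei. Thinned to 2000 UMIs, 92.4% of HFD and 92.2% of NFD dopaminergic nuclei and 89.2% of HFD and 88.1% of NFD GABAergic nuclei held a Grm7 UMI. Serotonergic nuclei were below the other neurons, at 850 CPM in HFD and 1267 CPM in NFD. Astrocytes had 102 CPM in HFD and 91.7 CPM in NFD, and granule-like HFD nuclei 133 CPM.

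Grm8, the group III receptor with high affinity for glutamate, was high in neurons and low in most glia. It was highest in dopaminergic nuclei, at 914 CPM in HFD (867 to 964) and 944 CPM in NFD (896 to 994), followed by GABAergic nuclei at 842 CPM in HFD and 854 CPM in NFD, Slc17a6 clusters at 769 CPM in HFD and 766 CPM in NFD, and serotonergic nuclei at 574 CPM in HFD and 695 CPM in NFD. The order of these 4 classes was the same in both libraries and neighbours differed beyond their counting intervals. Oligodendrocyte precursors had 6 UMIs in HFD (29.1 CPM) and 4 in NFD (26.4 CPM), 0.044-fold and 0.036-fold the other nuclei. Not all neurons were alike: clusters 4 (Pax8, Penk) and 11 (Lhx4, Dach2), each with GABAergic and glutamatergic markers, had 245 and 131 CPM in HFD and 262 and 135 CPM in NFD.

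Free RNA and mixed droplets can carry neuronal transcripts into glial barcodes. The receptor UMIs of each class were therefore also set beside the summed UMIs of 5 neuronal marker genes (Snap25, Syt1, Rbfox3, Stmn2 and Meg3) in the same nuclei. GABAergic nuclei had 86.4 Grm5 UMIs per 1000 such marker UMIs in HFD and 83.0 in NFD, and oligodendrocyte precursors had 1990 (1680 to 2350) in HFD and 1600 (1300 to 1980) in NFD. Grm7 gave 902 in HFD and 878 in NFD precursors, against 149 in HFD and 139 in NFD GABAergic nuclei. For both genes the precursor interval lay wholly above the GABAergic one in each library. The same held for Grm3 in astrocytes, with 766 in HFD and 660 in NFD, and in mature oligodendrocytes, with 141 in HFD and 118 in NFD, beside 8.64 in HFD and 7.87 in NFD GABAergic nuclei. Grm8 in astrocytes had 264 (217 to 318) in HFD and 335 (280 to 398) in NFD, above the 54.6 in HFD and 54.1 in NFD of GABAergic nuclei, although astrocytes were 0.324-fold the other HFD nuclei and 0.341-fold the other NFD nuclei in CPM.

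In microglia, the resident immune cells, the ratios lay nearer to those of GABAergic nuclei. They had 72.9 Grm5 UMIs per 1000 marker UMIs in HFD and 70.7 in NFD, 112 Grm7 UMIs in HFD and 113 in NFD, and 42.2 Grm8 UMIs in HFD and 29.7 in NFD. Few microglia held them: the 3 richest nuclei gave 53.3% of the Grm7 UMIs of 181 HFD nuclei and 53.6% of those of 216 NFD nuclei. Pericytes or fibroblasts had 1200 Grm7 UMIs per 1000 marker UMIs in HFD and 417 in NFD, above GABAergic nuclei, from 16 of 35 HFD nuclei and 12 of 32 NFD nuclei with a UMI. Their Grm3 values were 328 in HFD and 126 in NFD. Endothelial nuclei had 322 Grm7 UMIs in HFD and 203 in NFD, and 82.5 Grm3 UMIs in HFD and 35.8 in NFD. These intervals too lay wholly above the GABAergic ones in each library.

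**Figure D2:**
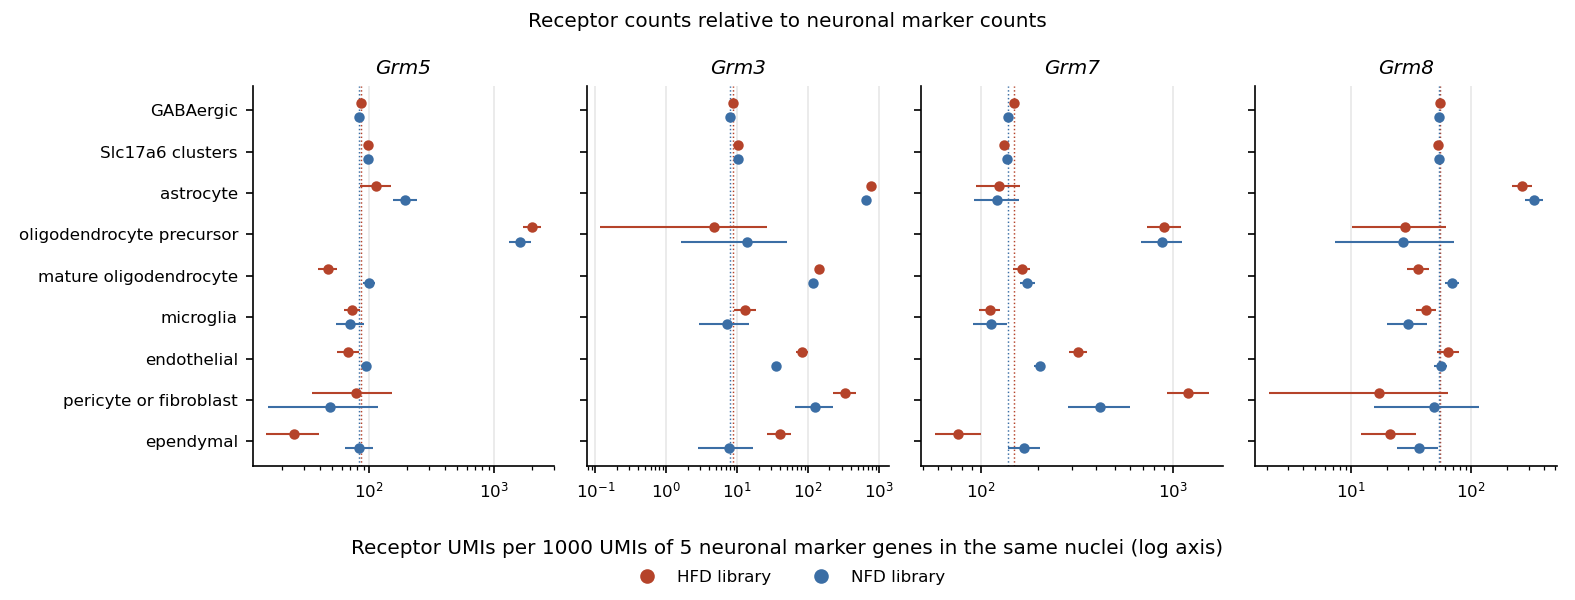
Receptor UMIs per 1000 UMIs of 5 neuronal marker genes in the same nuclei (log axis) by class, with HFD in red above NFD in blue, exact 95% counting intervals as lines and dotted lines at the GABAergic values. Among the classes above the GABAergic lines are oligodendrocyte precursors for Grm5 and Grm7, astrocytes for Grm3 and Grm8, and mature oligodendrocytes for Grm3. The microglial values lie near the GABAergic lines for Grm5, Grm3 and Grm7.

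Between the diets, GABAergic nuclei, the cells the study asked about, had nearly the same levels of the 5 receptor genes measured there when taken as 1 class. The HFD over NFD log2 ratio was 0.02 (−0.01 to 0.05) for Grm5, 0.10 (0.00 to 0.20) for Grm3, 0.09 (−0.14 to 0.31) for Grm4, 0.07 (0.04 to 0.09) for Grm7 and −0.02 (−0.06 to 0.02) for Grm8. A gene with at least 100 UMIs over both libraries was taken as higher or lower in HFD where its whole interval lay more than 25% above or 20% below the NFD level, a bound of 0.32 on the log2 scale. Of the 5 members measured 0 were past this bound, where 0.585% of 12139 genes were higher and 1.38% were lower, and all 5 intervals lay wholly inside it. Grm2, with under 100 UMIs, had a log2 ratio of −0.60 (−1.25 to 0.04). Clusters of this class differed for Grm3, at 0.45 (0.30 to 0.61) in cluster 2 and −0.44 (−0.74 to −0.13) in cluster 7. Clusters 3 and 12 gave −0.01 and 0.09, and none of these clusters was past the bound. Shares of thinned nuclei with a UMI were close as well, for example 85.6% in HFD and 84.4% in NFD for Grm5 and 56.1% in HFD and 59.4% in NFD for Grm8.

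In Slc17a6 clusters 1 of 6 members was past the bound, where 0.606% of genes were higher and 1.96% were lower. Grm4 had 36.1 CPM in HFD (33.0 to 39.4) and 24.3 CPM in NFD (21.3 to 27.6), a log2 ratio of 0.57 (0.35 to 0.80). The ratio was 0.02 for Grm5, −0.02 for Grm3, −0.03 for Grm7 and 0.01 for Grm8 there. In dopaminergic nuclei 0 of 4 members were past the bound, where 0.718% of genes were higher and 0.739% were lower.

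Serotonergic nuclei had less Grm7 in HFD, at 850 CPM (818 to 884) in HFD and 1267 CPM (1219 to 1316) in NFD, a log2 ratio of −0.57 (−0.65 to −0.50). It was 1 of 4 measured members, where 1.07% of genes were higher and 1.44% were lower. The share of thinned nuclei with a Grm7 UMI was 55.6% of 169 in HFD and 80.2% of 253 in NFD. Grm5, at −0.28 (−0.38 to −0.18), and Grm8, at −0.28 (−0.38 to −0.17), lay below 0 without passing the bound. Depth differed most in this class, with a median of 16639 UMIs per HFD nucleus and 5676 UMIs per NFD nucleus. Within nuclei of like depth the Grm7 log2 ratio was −0.70 in nuclei of 4000 to 8000 UMIs, −0.48 at 8000 to 16000 UMIs and −0.41 above 16000 UMIs, so Grm7 was lower in HFD in each bin, the first of which held 18 HFD and 85 NFD nuclei. Grm5 gave −0.06, 0.00 and 0.11 in the same bins, and Grm8 −0.27, −0.05 and 0.31, so that neither was lower in all 3.

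**Figure D3:**
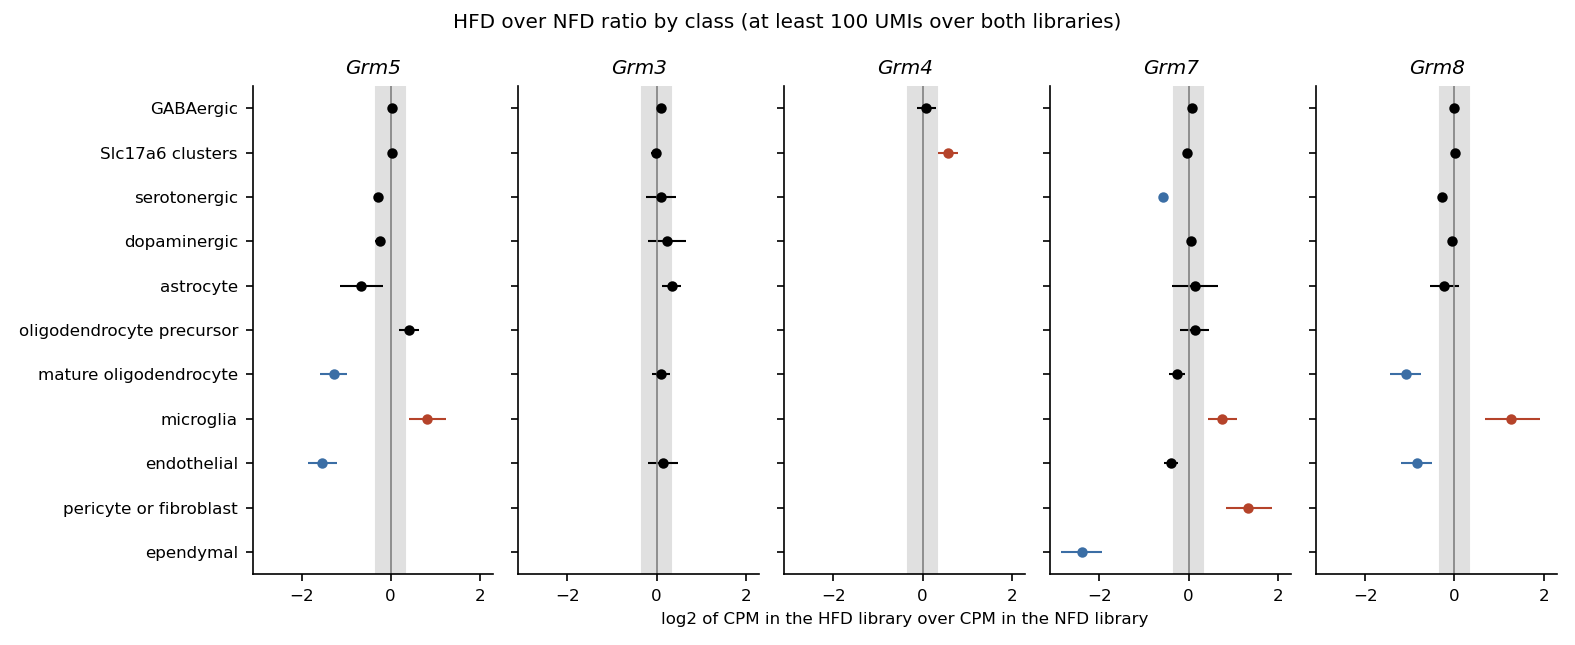
Log2 ratio of the level in HFD over that in NFD by class, for members with at least 100 UMIs over both libraries, with exact 95% counting intervals and a grey band at the bound of 0.32 on either side of 0. Points are red where the whole interval was above the band, blue where it was below and black otherwise; all GABAergic points lie inside the band, Grm7 is blue in serotonergic nuclei, and granule-like nuclei and Grm2 are not drawn.

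Over all nuclei Grm4 was the 1 member of 6 past the bound, with 43.2 CPM in HFD (41.5 to 45.0) and 21.8 CPM in NFD (20.4 to 23.3) and a log2 ratio of 0.99 (0.88 to 1.10), where 1.72% of 16345 genes were higher and 3.15% were lower. This ratio moved with the granule-like nuclei. Without them Grm4 had 32.7 CPM in HFD and 21.6 CPM in NFD, a log2 ratio of 0.60. Gabra6, a subunit of GABA-A receptors that marks granule cells, also appeared outside cluster 5, with 6.81 CPM in HFD and 0.102 CPM in NFD in Slc17a6 clusters and 160 CPM in HFD and 0 CPM in NFD in mature oligodendrocytes. Granule-like HFD nuclei held 0.553 Grm4 UMIs (0.500 to 0.610) per Gabra6 UMI. Mature oligodendrocytes of HFD held 0.754 (0.515 to 1.10), an interval that includes the granule-like ratio, while Slc17a6 clusters held 5.30 and GABAergic nuclei 10.3. The oligodendrocyte ratio rests on few nuclei, as 3 of 77 held 65.4% of the 52 Grm4 UMIs and 1 held 24.

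When the Gabra6 UMIs of each group times 0.553 were taken off its Grm4 UMIs, a step chosen after the values were seen, GABAergic nuclei had 23.4 CPM in HFD and 23.2 CPM in NFD, a log2 ratio of 0.01. Slc17a6 clusters had 32.3 CPM in HFD and 24.3 CPM in NFD, a log2 ratio of 0.42. With the interval as counted moved by the same amount (0.19 to 0.64), it was no longer past the bound. Cluster 17, itself 1 of the Slc17a6 clusters, and cluster 4 had more Grm4 in CPM than these classes. In NFD the interval of cluster 4 met that of the Slc17a6 clusters. Cluster 17 (Chat, Nos1) had 63.2 CPM in HFD and 35.8 CPM in NFD, with a log2 ratio of 0.82 (0.31 to 1.36) that did not pass the bound and was −0.19 in thinned nuclei. Cluster 4 had 56.1 CPM in HFD (49.4 to 63.5) and 29.5 CPM in NFD (23.5 to 36.6), a log2 ratio of 0.93 (0.56 to 1.30). After the subtraction this was 0.86 (0.50 to 1.24 by the same shift), still past the bound. Grm4 was 1 of 5 measured members there, where 0.607% of genes were higher and 1.18% were lower, and 11.6% of thinned HFD nuclei and 5.81% of thinned NFD nuclei held a Grm4 UMI. With cluster 4 added to the GABAergic class, the Grm4 ratio of that class was 0.37 in place of 0.09. Of the other Slc17a6 clusters, cluster 1 (Tac1, Lhx9) had a log2 ratio of 0.67 (0.37 to 0.97), past the bound. After the subtraction it was 0.46 (0.16 to 0.76 by the same shift) and no longer past it. Cluster 6 (Npsr1, Nts) showed no such difference, with 22.7 CPM in HFD and 23.0 CPM in NFD. Whether diet or the tissue sampled moved Grm4 in these clusters was not tested, and with 1 library per diet the causes cannot be told apart.

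**Figure D4:**
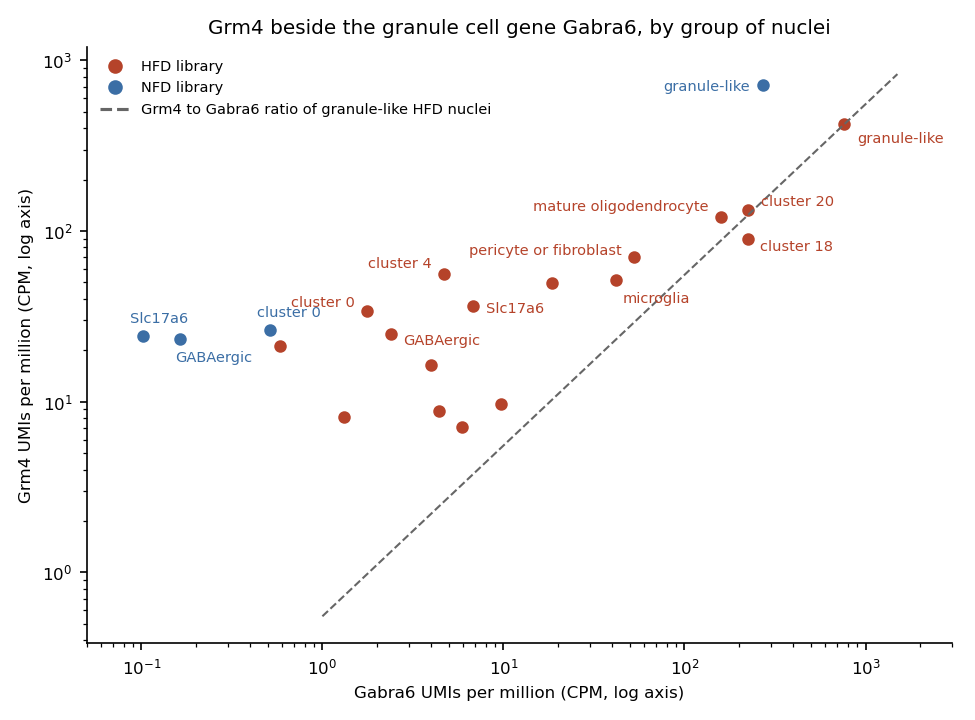
Grm4 level against the level of the granule cell gene Gabra6 (CPM, both axes log) in each group of nuclei, HFD in red and NFD in blue, with a dashed line at the Grm4 to Gabra6 ratio of granule-like HFD nuclei; groups at 0 for either gene are not drawn. Mature oligodendrocytes and cluster 20 of HFD lie near the line, and GABAergic nuclei, Slc17a6 clusters and cluster 4 lie well above it.

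In glia and vessel cells larger ratios were seen. Microglia had 3 measured members, and all 3 were higher in HFD, where 11.8% of genes were higher and 3.71% were lower. Grm5 had 468 CPM in HFD and 266 CPM in NFD (log2 ratio 0.81), Grm7 717 CPM in HFD and 424 CPM in NFD (0.76) and Grm8 271 CPM in HFD and 112 CPM in NFD (1.28). The 5 neuronal markers summed to 6420 CPM in HFD and 3763 CPM in NFD microglia, and none of the 5 was at 0. After the 6% of nuclei with the highest doublet scores were removed, the ratios were −0.71 for Grm5, −0.65 for Grm7 and −0.12 for Grm8. The direction thus did not hold without these nuclei. The scoring marked only 0 HFD nuclei and 1 NFD nucleus as doublets, so the nuclei removed cannot be called doublets.

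Endothelial nuclei went the other way, with 2 of 4 members lower in HFD, where 8.24% of genes were higher and 10.2% were lower. Grm5 had 219 CPM in HFD and 634 CPM in NFD (−1.53) and Grm8 208 CPM in HFD and 373 CPM in NFD (−0.84), and the neuronal markers summed to 3225 CPM in HFD and 6715 CPM in NFD. Mature oligodendrocytes also had Grm5 (−1.27) and Grm8 (−1.10) lower in HFD, 2 of 4 members, where 6.63% of genes were higher and 3.98% were lower. Their neuronal markers summed to 6533 CPM in HFD and 7327 CPM in NFD. Ependymal nuclei, which line the ventricle, had 68.7 CPM of Grm7 in HFD and 361 CPM in NFD (−2.39), the 1 member measured, where 3.16% of genes were higher and 3.47% were lower. Neuronal markers there summed to 900 CPM in HFD and 2139 CPM in NFD. Pericytes or fibroblasts had Grm7 at 2446 CPM in HFD and 966 CPM in NFD (1.34), also the 1 member measured, where 16.1% of 62 genes were higher and 12.9% were lower, and 3 nuclei held 58.3% of its HFD UMIs. Their neuronal markers summed to 2042 CPM in HFD and 2315 CPM in NFD, with 1 of the 5 at 0 in HFD. Per 1000 neuronal marker UMIs, Grm5 in mature oligodendrocytes was 46.5 (38.7 to 55.4) in HFD and 100 (89.4 to 112) in NFD. Grm8 there was 36.2 in HFD and 69.0 in NFD, and ependymal Grm7 was 76.4 in HFD and 169 in NFD. Endothelial nuclei had 68.0 in HFD and 94.5 in NFD for Grm5, and 64.6 in HFD and 55.5 in NFD for Grm8. The intervals of the 2 libraries met for endothelial Grm8 and for the microglial genes. Grm3, not past the bound, had a log2 ratio of 0.14 in endothelial nuclei and 0.09 in mature oligodendrocytes. The part of neuronal RNA in these ratios was not tested.

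The glial levels that stood above the neuronal ratio differed less between the diets. Grm3 in mature oligodendrocytes had a log2 ratio of 0.09 (−0.11 to 0.29), and in astrocytes 0.34 (0.12 to 0.55). In mature oligodendrocytes 3 HFD nuclei held 31.2% of the Grm3 UMIs, which the interval does not cover. Grm5 in oligodendrocyte precursors had 0.41 (0.18 to 0.65), and Grm7 there 0.14 (−0.19 to 0.47). Of the members measured, 0 of 4 in astrocytes and 0 of 2 in precursors were past the bound, where 3.41% of genes were higher and 1.43% were lower in astrocytes and 2.4% were higher and 1.29% were lower in precursors.

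Within GABAergic nuclei the receptor levels varied widely between subclusters. The 3028 nuclei with a UMI of Slc32a1, Gad1 or Gad2, the GABA transporter and GABA synthesis genes, formed 9 subclusters named by number and leading genes. Grm8 was highest in subcluster 3 (Nr4a2), at 1772 CPM in HFD and 1711 CPM in NFD, and low in subcluster 2 (Foxp2), at 297 CPM in HFD and 238 CPM in NFD. Grm7 was highest in subcluster 8 (Ntn1, Col12a1), at 4584 CPM in HFD and 4320 CPM in NFD, from 15 HFD and 31 NFD nuclei. Grm5 was high in subcluster 7 (Vmn1r209), at 2012 CPM in HFD and 2981 CPM in NFD. Subcluster 3 was high in these genes too, with 2004 CPM of Grm5 in HFD and 1815 CPM in NFD. Its Grm7 level was 3456 CPM in HFD and 3052 CPM in NFD. Subcluster 5 (Reln, St18) had little Grm5, at 745 CPM in HFD and 893 CPM in NFD, and little Grm8, at 338 CPM in HFD and 348 CPM in NFD, but much Grm7, at 3193 CPM in HFD and 3290 CPM in NFD. Grm3 was highest in subcluster 1 (Six3), at 194 CPM in HFD and 224 CPM in NFD. The receptor genes therefore did not follow 1 common order over the subclusters.

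Members past the bound were found in 2 subclusters. In subcluster 7, with 47 HFD and 90 NFD nuclei, Grm5 (log2 ratio −0.57) and Grm7 (1124 CPM in HFD, 1683 CPM in NFD, −0.58) were lower in HFD, 2 of 3 measured members, where 2.98% of genes were higher and 3.85% were lower. In subcluster 6 (Cdh23, Sntg2), with 85 HFD and 100 NFD nuclei, Grm8 had 416 CPM in HFD and 612 CPM in NFD (−0.56), 1 of 4 members, where 0.695% of genes were higher and 0.483% were lower. In thinned nuclei the ratios were −0.25 for Grm5 in subcluster 7 and −0.93 for Grm8 in subcluster 6. In nuclei of like depth Grm8 in subcluster 6 gave −0.38 at 4000 to 8000 UMIs, −1.51 at 8000 to 16000 UMIs and 0.44 above 16000 UMIs, the last from 19 HFD and 4 NFD nuclei, so its direction did not hold in every bin. In subcluster 7 the bins of 4000 to 8000 and 8000 to 16000 UMIs gave −0.67 and −1.18 for Grm5, and −0.12 (−0.39 to 0.15) and −1.45 for Grm7. These bins held 22 and 20 HFD nuclei and 48 and 8 NFD nuclei. In the other 7 subclusters the ratios of the members measured ran between −0.26 and 0.23 for Grm5, between −0.04 and 0.35 for Grm7 and between −0.41 and 0.32 for Grm8. Grm3, measured in 5 of them, ran between −0.42 and 0.31. Grm4, measured in 2, ran between 0.17 and 0.76, the higher being subcluster 1 with 26.2 CPM in HFD and 15.5 CPM in NFD (0.15 to 1.41). Outside the GABAergic class, cluster 17 had Grm5 at 1224 CPM in HFD and 866 CPM in NFD (0.50, 0.39 to 0.61), 1 of 5 members, where 2.41% of genes were higher and 1.52% were lower. This ratio was −0.32 in nuclei of 4000 to 8000 UMIs, −0.16 at 8000 to 16000 UMIs and 0.64 above 16000 UMIs, so it did not hold within nuclei of like depth.

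**Figure D5:**
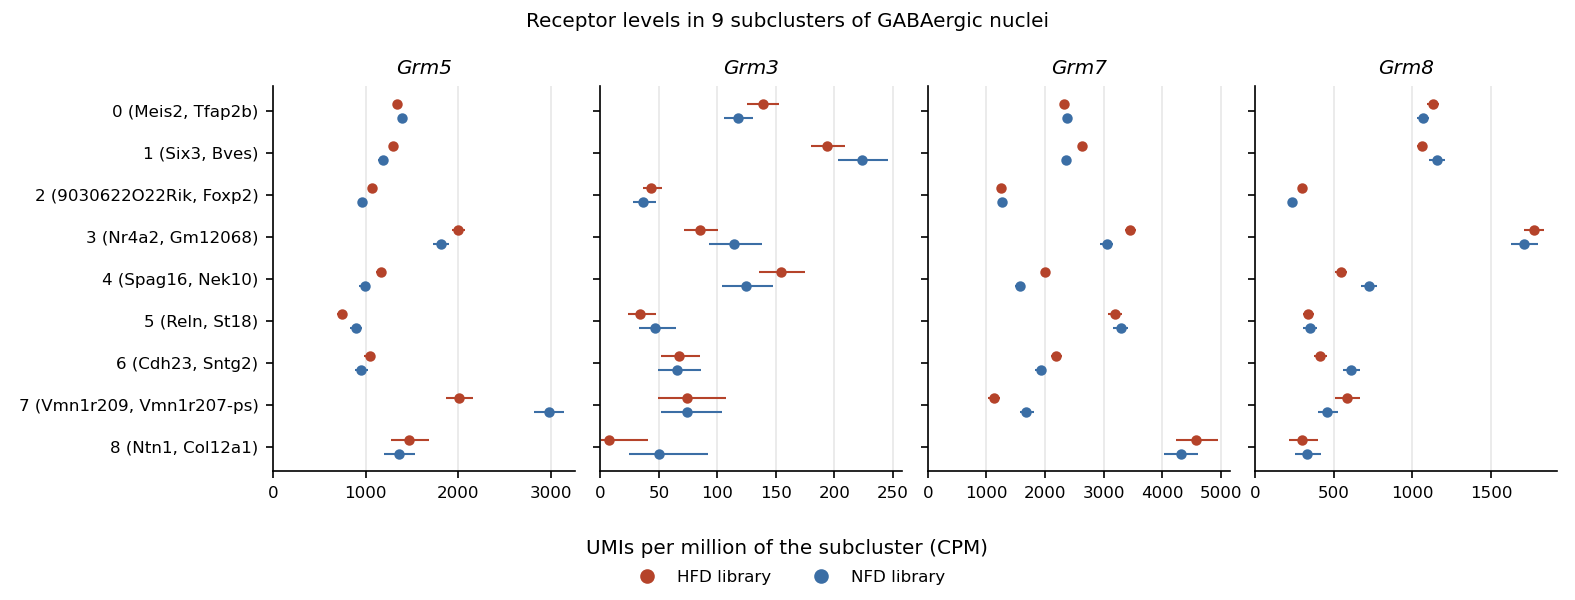
Level (CPM, linear axis from 0, a separate range for each panel) of 4 receptor genes in the 9 subclusters of GABAergic nuclei, HFD in red above NFD in blue, with exact 95% counting intervals as lines. In both libraries Grm8 is highest in subcluster 3 and Grm7 in subcluster 8, which holds 15 HFD and 31 NFD nuclei. Grm5 is highest in subcluster 7 in NFD, while in HFD subclusters 7 and 3 lie level.

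Single GABAergic nuclei carried several receptor genes at once. Thinned to 2000 UMIs, 42.5% of HFD and 44.2% of NFD GABAergic nuclei held UMIs of 3 of the 6 genes, 36.3% of HFD and 34.6% of NFD nuclei held 2, and 0.705% of HFD and 0.633% of NFD nuclei held none. Pairs of receptor genes met in a nucleus about as often as the product of their shares, at 0.953 to 1.13 times the product in HFD and 0.979 to 1.08 times in NFD. Spread over nuclei differed between the genes. The richest 10% of GABAergic nuclei held 64.2% of the thinned Grm3 UMIs in HFD and 69.8% in NFD, beside 28.0% in HFD and 28.4% in NFD for Grm7. Grm8 lay between, with 42.4% in HFD and 40.4% in NFD. The variance over the mean of the thinned counts ordered the genes differently, at 1.55 in HFD and 1.75 in NFD for Grm3, 2.08 in HFD and 2.04 in NFD for Grm5, 3.19 in HFD and 3.03 in NFD for Grm7, and 3.31 in HFD and 2.95 in NFD for Grm8. Both measures move with the level of a gene, so no order of spread is drawn from them.

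Across 23 points, 12 classes of HFD and 11 of NFD with at least 20 nuclei in that library, 14280 genes were ranked by the Pearson correlation of log2(CPM + 10) with each receptor gene. The points share libraries and depth, so the values are descriptions. Grm5 was most like Pcdh15 (r = 0.962), a protocadherin, and Grm8 most like Grin2b (0.951), an NMDA receptor subunit. Grm7 was most like Prkg1 (0.934), a cyclic GMP-dependent kinase, and Grm3 most like Myo6 (0.830), an unconventional myosin. The genes nearest to Grm4 were Tmem178 (0.924), Gabra6 (0.894) and Fat2 (0.879), the last 2 being granule cell markers. Granule-like nuclei were 1 of the points in HFD and none in NFD, and over the other 22 points, a step added after the values were seen, r was 0.857 for Tmem178, 0.794 for Gabra6 and 0.765 for Fat2. Nearest to Grm2 was Xlr3a (0.899). The highest Grm2 point, 22.5 CPM in NFD pericytes or fibroblasts, came from 1 UMI, and the next was 6.95 CPM in HFD Slc17a6 clusters. No likeness is therefore read from the Grm2 value. Between the members r was highest for Grm5 with Grm7 (0.755) and for Grm7 with Grm8 (0.517), and near 0 for Grm3 with Grm4 (0.055).

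The genes that act with the receptors also differed little between the diets in GABAergic nuclei, where the median log2 ratio of all genes was −0.04. Of all genes there, 0.585% were past the bound as higher in HFD and 1.38% as lower. Of the Gq effectors and scaffolds of group I receptors, 13 of 15 were measured and 0 were past the bound, with a median of 0.16. Among them Homer1, the scaffold that ties group I receptors to calcium stores, had 79.5 CPM in HFD and 64.4 CPM in NFD, Plcb1, a phospholipase C, 837 CPM in HFD and 697 CPM in NFD, and Itpr1, the calcium release channel, 107 CPM in HFD and 83.1 CPM in NFD. Of the Gi/o effectors, 17 of 19 were measured and 0 were past the bound, with a median of 0.11, and Kcnj3, a potassium channel opened by Gi/o, had 303 CPM in HFD and 250 CPM in NFD. Of the synaptic partners of group III receptors, 6 of 7 were measured and 0 were past the bound, with a median of 0.04. Of the genes for glutamate and N-acetylaspartylglutamate supply and clearance, 9 of 15 were measured and 1 was lower, Slc17a6 itself, with 10.5 CPM in HFD and 18.8 CPM in NFD. Slc17a6 was among the markers used to call this class. The glutamatergic markers summed to 32.4 CPM in cluster 2, against 7.72, 7.65 and 9.09 CPM in clusters 3, 7 and 12. Cluster 2 held 452 HFD and 875 NFD nuclei, so no diet difference is read from Slc17a6 here.

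In Slc17a6 clusters 1 of 13 measured Gq genes was past the bound, Homer1, with 95.6 CPM in HFD and 63.2 CPM in NFD (log2 ratio 0.60), where Grm5 itself had a ratio of 0.02. Glul, glutamine synthetase, was the 1 of 9 supply and clearance genes lower in HFD, with 3.69 CPM in HFD and 7.22 CPM in NFD (−0.97). Of all genes in these clusters, 0.606% were higher and 1.96% were lower. In astrocytes 1 of 7 measured Gi/o genes was higher, Kcnj3, with 240 CPM in HFD and 68.4 CPM in NFD (1.81), where 3.41% of all genes were higher and 1.43% were lower.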

How the data were processed

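Droplet counts of vlPAG nuclei came from 1 library per diet, each of pooled mice. The authors deposited raw counts of UMIs by gene and barcode, obtained with Cell Ranger (4.0.0 per the matrix header) on GRCm38. The sources used here do not say if intronic reads were included. The sample labels gave the diet of each library.

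The quality filter used the cut-offs that the paper states. The paper reports 6813 HFD and 7625 NFD cells, the numbers of barcodes before this filter, so fewer nuclei were kept here. Clustering in Seurat 5.3.0 (R 4.3.3, Matrix 1.6.5) used 1929 variable genes, the receptor family and the genes that the paper lists as changed having been taken out, with 20 principal components and a resolution of 0.5 (0.1 for GABAergic nuclei). The 24 clusters gave 12 classes named from markers. A class needed a mean log2 marker fold of at least 1 and 3 markers found in at least 10% of nuclei, and neurons were called by transmitter at 2-fold. The threshold of 1.5 for serotonergic and dopaminergic neurons was set after the clusters were seen, and cluster 20, with astrocyte and neuronal markers, was kept apart then. Scrublet, in scanpy 1.11.5, marked 0 HFD nuclei and 1 NFD nucleus and had not worked. Doublets were therefore not removed, except in an alternative without the top 6% of scores.

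UMIs were summed per class and library (numpy 2.4.6, scipy 1.17.1, pandas 2.3.3 and matplotlib 3.10.9 under Python 3.11.15). Levels have exact Poisson intervals, ratios exact conditional binomial intervals and shares Clopper-Pearson intervals. A member was past the bound between libraries, or past 2-fold in both libraries between a class and all other nuclei, when its whole interval was. The ratio step was tested on simulated data. With 1 library per diet no p-value was computed.

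The members and gene lists were chosen with earlier results of these data known. The genes named are the 6 members, Grm6, up to 4 genes of each partner list with the largest GABAergic ratios or past the bound in a class, the genes most like each member, and markers. Alternatives with clusters 4 and 20 added, with the granule part subtracted and within bins of depth were chosen after the data were seen. Some genes under this rule are not reported here.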

Additional observations from a re-analysis of the deposited data

Results flagged for a closer look

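The HFD over NFD log2 ratio had opposite directions in a pair of classes for 3 receptor genes, and in each case the difference between the classes was not tested, as there was 1 library per diet. Grm5 had a ratio of 0.81 in microglia and −1.53 in endothelial nuclei. Grm7 had 1.34 in pericytes or fibroblasts and −2.39 in ependymal nuclei. Grm8 had 1.28 in microglia and −1.10 in mature oligodendrocytes. The microglial ratios reversed under other settings, given below. Per 1000 neuronal marker UMIs, Grm5 was 72.9 in HFD and 70.7 in NFD microglia, and 68.0 in HFD and 94.5 in NFD endothelial nuclei. In pericytes or fibroblasts 3 nuclei held 58.3% of the HFD Grm7 UMIs.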

How the results depend on the processing

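No paired analysis was possible because each diet had 1 library. For all nuclei, Grm4 gave a log2 ratio of 1.97 with each nucleus weighted equally, 1.21 in thinned nuclei and 0.60 without granule-like nuclei, beside 0.99. In GABAergic nuclei the ratios moved by more than their counting error under some settings and Grm4 gave 0.37 with cluster 4 added. Thinning gave 0.21 for Grm3, 0.061 for Grm5 and 0.092 for Grm7, and centring on the median of all genes gave 0.063 for Grm5, 0.106 for Grm7 and 0.018 for Grm8. A resolution of 0.3 gave −0.01 for Grm3, −0.02 for Grm5 and −0.074 for Grm8, and all 2000 variable genes gave 0.02 for Grm8. Neurons called by marker UMIs gave −0.054 for Grm3, −0.042 for Grm5, 0.042 for Grm7 and −0.113 for Grm8, and cluster 4 added gave 0.038 for Grm7 and −0.065 for Grm8. Microglial ratios reversed under some settings: Grm3 to −0.43 with nuclei weighted equally, and Grm5 to −0.62 and Grm7 to −0.70 when thinned. Without the 6% of nuclei with the highest doublet scores, Grm5 gave −0.71, Grm7 −0.65 and Grm8 −0.12. The causes were not tested. In serotonergic nuclei Grm7 ran between −0.90 with nuclei weighted equally and −0.57 when centred on the median of all genes over the whole class, and up to −0.41 within bins of depth, so lower in HFD under every setting run. Depth limits Grm2 outside Slc17a6 clusters and all receptor genes in pericytes or fibroblasts and in the 10 granule-like NFD nuclei.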

Other observations

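The 491 HFD barcodes and 125 NFD barcodes that were removed held 18.3 CPM of Grm4 in HFD and 7.30 CPM in NFD, 139 CPM of Grm5 in HFD and 248 CPM in NFD, and 163 CPM of Grm7 in HFD and 314 CPM in NFD. Of these, Grm5 and Grm7 lay below the levels of the kept nuclei in both libraries.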
